A study of Mus musculus with 24 samples.

Results

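The genes described here are 6 that write, assist or remove DNA methylation, namely Dnmt1, Dnmt3a, Dnmt3b, Dnmt3l, Tet1 and Tet2, of 21887 protein-coding genes in the annotation used. A listed peak was counted for a gene when its midpoint lay inside the gene's mm10 span or within 25 kb of it. This gave 290 of the 246925 peaks in 16 lists, and, after overlapping peaks of an antibody were merged, 98 regions. Klf4 had 34 of them, Oct4 had 4, Sox2 had 3 and H3K27ac had 57. The rule itself uses gene positions and no peak values.

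The series asks which regulatory elements of embryonic stem cells stay marked during mitosis, using chromatin immunoprecipitation and sequencing (ChIP-seq). The cells were V6.5 mouse embryonic stem cells, a C57BL/6-129 line labelled with age E3.5, grown on irradiated feeders with serum and LIF and then, before arrest, on gelatin with PD98059, an inhibitor of MEK1, and Chir99021, an inhibitor of Gsk3. Mitotic cells were shaken off after nocodazole, a spindle poison, had acted for 7 h at a labelled 100 ug/ml that may be an error of unit, whereas asynchronous cells were not arrested. All cells were fixed in 1% formaldehyde, and the antibodies were against the pluripotency factors Klf4 (3 mitotic and 3 asynchronous libraries), Oct4 and Sox2 (2 mitotic and 1 asynchronous library each) and the active chromatin mark H3K27ac (2 mitotic and 2 asynchronous libraries).

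DNA methylation is copied to new strands by Dnmt1 and laid down afresh by Dnmt3a and Dnmt3b, which work with the catalytically inactive cofactor Dnmt3l. Tet enzymes oxidise methylcytosine, the first step of its removal. Embryonic stem cells express enzymes of both kinds, and pluripotency factors are known to bind near several of these genes.

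Some facts of the libraries bear on every value. List length ran from 3795 to 8438 peaks in the mitotic Klf4 libraries and from 10575 to 21307 in the asynchronous ones. For H3K27ac it was 36526 and 30771 in mitotic against 47475 and 46491 in asynchronous libraries, for Oct4 1246 and 5282 against 3347, and for Sox2 4537 and 1940 against 2986. Read depth was not given in the sources used here. Both states occur under the title prefix EC-EA-3702, which covers all Oct4 and Sox2 libraries, Klf4 mitotic 3 and Klf4 asynchronous 3. For H3K27ac the states carry different prefixes, so that state and prefix cannot be told apart. The 2 mitotic Oct4 lists carry each other's number in their peak names, and the numbers here follow the sample labels. H3K27ac regions listed in both asynchronous libraries lay by 8 of 8 stem cell marker genes, by 4 of 6 neural progenitor markers and by 2 of 6 feeder fibroblast markers. Over all genes such a region lay by 15691 of 21887. A peak reports many cells at once, so fewer occupied cells and less occupancy per cell cannot be told apart.

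Of the start sites in the RefSeq promoter table (GRCm38.p6), 4 are shown because the H3K27ac lists separate them: around the first pair mitotic peaks were sparse or not listed, and around the second pair both mitotic lists had peaks. Capitals mark GGGCGG, the GC box read by Sp factors, and GGGNGTGG, a Klf motif, each on either strand. The stretches end at the start site or where the annotated gene span begins, and run 5′ to 3′ on the gene's strand. They are chr2:153649199-153649410 (plus strand, Dnmt3b), chr12:3891494-3891743 (plus strand, the intragenic start of Dnmt3a), chr10:78049592-78049841 (plus strand, the middle of 3 listed Dnmt3l starts) and chr10:62887470-62887574 (minus strand, Tet1).
Dnmt3b: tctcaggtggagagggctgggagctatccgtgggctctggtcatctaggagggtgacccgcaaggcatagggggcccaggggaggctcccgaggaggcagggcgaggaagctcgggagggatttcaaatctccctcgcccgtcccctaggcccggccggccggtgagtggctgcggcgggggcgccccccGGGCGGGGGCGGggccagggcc
Dnmt3a: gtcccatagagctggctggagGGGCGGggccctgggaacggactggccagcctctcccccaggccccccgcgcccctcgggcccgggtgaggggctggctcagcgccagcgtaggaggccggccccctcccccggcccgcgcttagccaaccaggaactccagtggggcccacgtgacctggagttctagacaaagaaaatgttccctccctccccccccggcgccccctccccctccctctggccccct
Dnmt3l: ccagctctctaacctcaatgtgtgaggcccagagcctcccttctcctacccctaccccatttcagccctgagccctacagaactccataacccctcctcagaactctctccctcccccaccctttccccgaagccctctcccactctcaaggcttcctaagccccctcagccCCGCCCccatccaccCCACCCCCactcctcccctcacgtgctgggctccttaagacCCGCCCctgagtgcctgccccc
Tet1: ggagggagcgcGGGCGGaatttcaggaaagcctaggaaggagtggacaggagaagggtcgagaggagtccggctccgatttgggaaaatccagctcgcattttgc
The Dnmt3b stretch held 2 GC boxes, one directly after the other, and no Klf motif. The Dnmt3a stretch held 1 GC box, the Tet1 stretch 1, and the Dnmt3l stretch 2 GC boxes and 1 Klf motif between them. Over 250 bases before each of 21263 start sites, 42.6% held a GC box, 17.7% the Klf motif, 1.58% the octamer ATGCAAAT and 2.84% the Sox letters AACAATG, and the last 2 strings were in none of the 4 stretches. Over the first 212 bases of those windows, the length of the Dnmt3b stretch, 35.5% held a GC box, and over the first 105 bases, the length of the Tet1 stretch, 13.8% did. Such matches describe letters only, and a stretch without them says nothing about the factor.

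Klf4 was listed near every one of the 6 genes in asynchronous cells and was kept in mitosis by each of them at 1 or 2 sites. A region belonged to the asynchronous set when at least 2 of 3 Klf4 libraries, both H3K27ac libraries or the single Oct4 or Sox2 library listed it, and it counted as kept if 2 or more mitotic libraries also listed it, as intermediate if 1 did and as lost if none did. By the 6 genes 18 Klf4 regions were in the asynchronous set, of which 7 were kept, 3 intermediate and 8 lost. That is 38.9% kept and 44.4% lost, against 26.9% kept and 44.0% lost among all 13982 Klf4 regions of that set. Each of the 6 genes had a region of that set, as did 11699 of all 21887 genes. At least 1 kept region lay by 6 of 6, where the share over all genes with a region of that set was 44.9%. The count of kept Klf4 regions was 3 without Klf4 mitotic 3, 4 without Klf4 mitotic 1 and 6 without Klf4 mitotic 2. Each time both remaining mitotic libraries had to list a region, so the count could hardly rise. With only peaks of a −log10 q of at least 5 the count of kept Klf4 regions was 2, at Dnmt3a and Dnmt3l.

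Oct4 and Sox2 were listed at few sites, chiefly at Tet2. Oct4 had 2 regions in the asynchronous set, at Tet2 (kept) and Tet1 (intermediate), so that 1 of 2 was kept, where the share over all Oct4 regions was 24.6%. Sox2 likewise had 2, at Tet2 (kept) and near Dnmt1 (intermediate), where 40.9% of all Sox2 regions were kept. Counted by gene, 1 of 2 genes had a kept region for each factor, against 24.7% of genes for Oct4 and 41.2% for Sox2. No library listed Oct4 by Dnmt1, Dnmt3a or Dnmt3b, or Sox2 by Dnmt3a, Dnmt3b, Dnmt3l or Tet1. Most genes lack such a region, since those of the asynchronous set lay by 3342 of 21887 genes for Oct4 and by 2656 for Sox2. Just beyond the window, 26.73 kb from Dnmt3b, the asynchronous Oct4 library had a peak with a fold of 4.84.

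Mitotic H3K27ac was held by 4 of the genes and hardly or not at all by the de novo enzymes. Of 30 asynchronous H3K27ac regions 17 were kept, 6 were intermediate and 7 were lost, or 56.7% kept and 23.3% lost, against 46.1% and 39.4% among all 32482. Kept regions lay by Dnmt1 (5 of 7), Dnmt3l (3 of 5), Tet1 (6 of 7) and Tet2 (3 of 5), and none by Dnmt3a (0 of 4) or Dnmt3b (0 of 2). Thus 4 of 6 genes had at least 1 kept region, where 81.6% of all genes with such a region did. Of 20 regions in both mitotic lists, 1 was in neither asynchronous list, against 26.7% over all regions. Some of these regions were closer to the start site of another gene: 15 of 57 for H3K27ac, 8 of the kept ones among them, and 5 of 34 for Klf4.

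**Figure D1:**
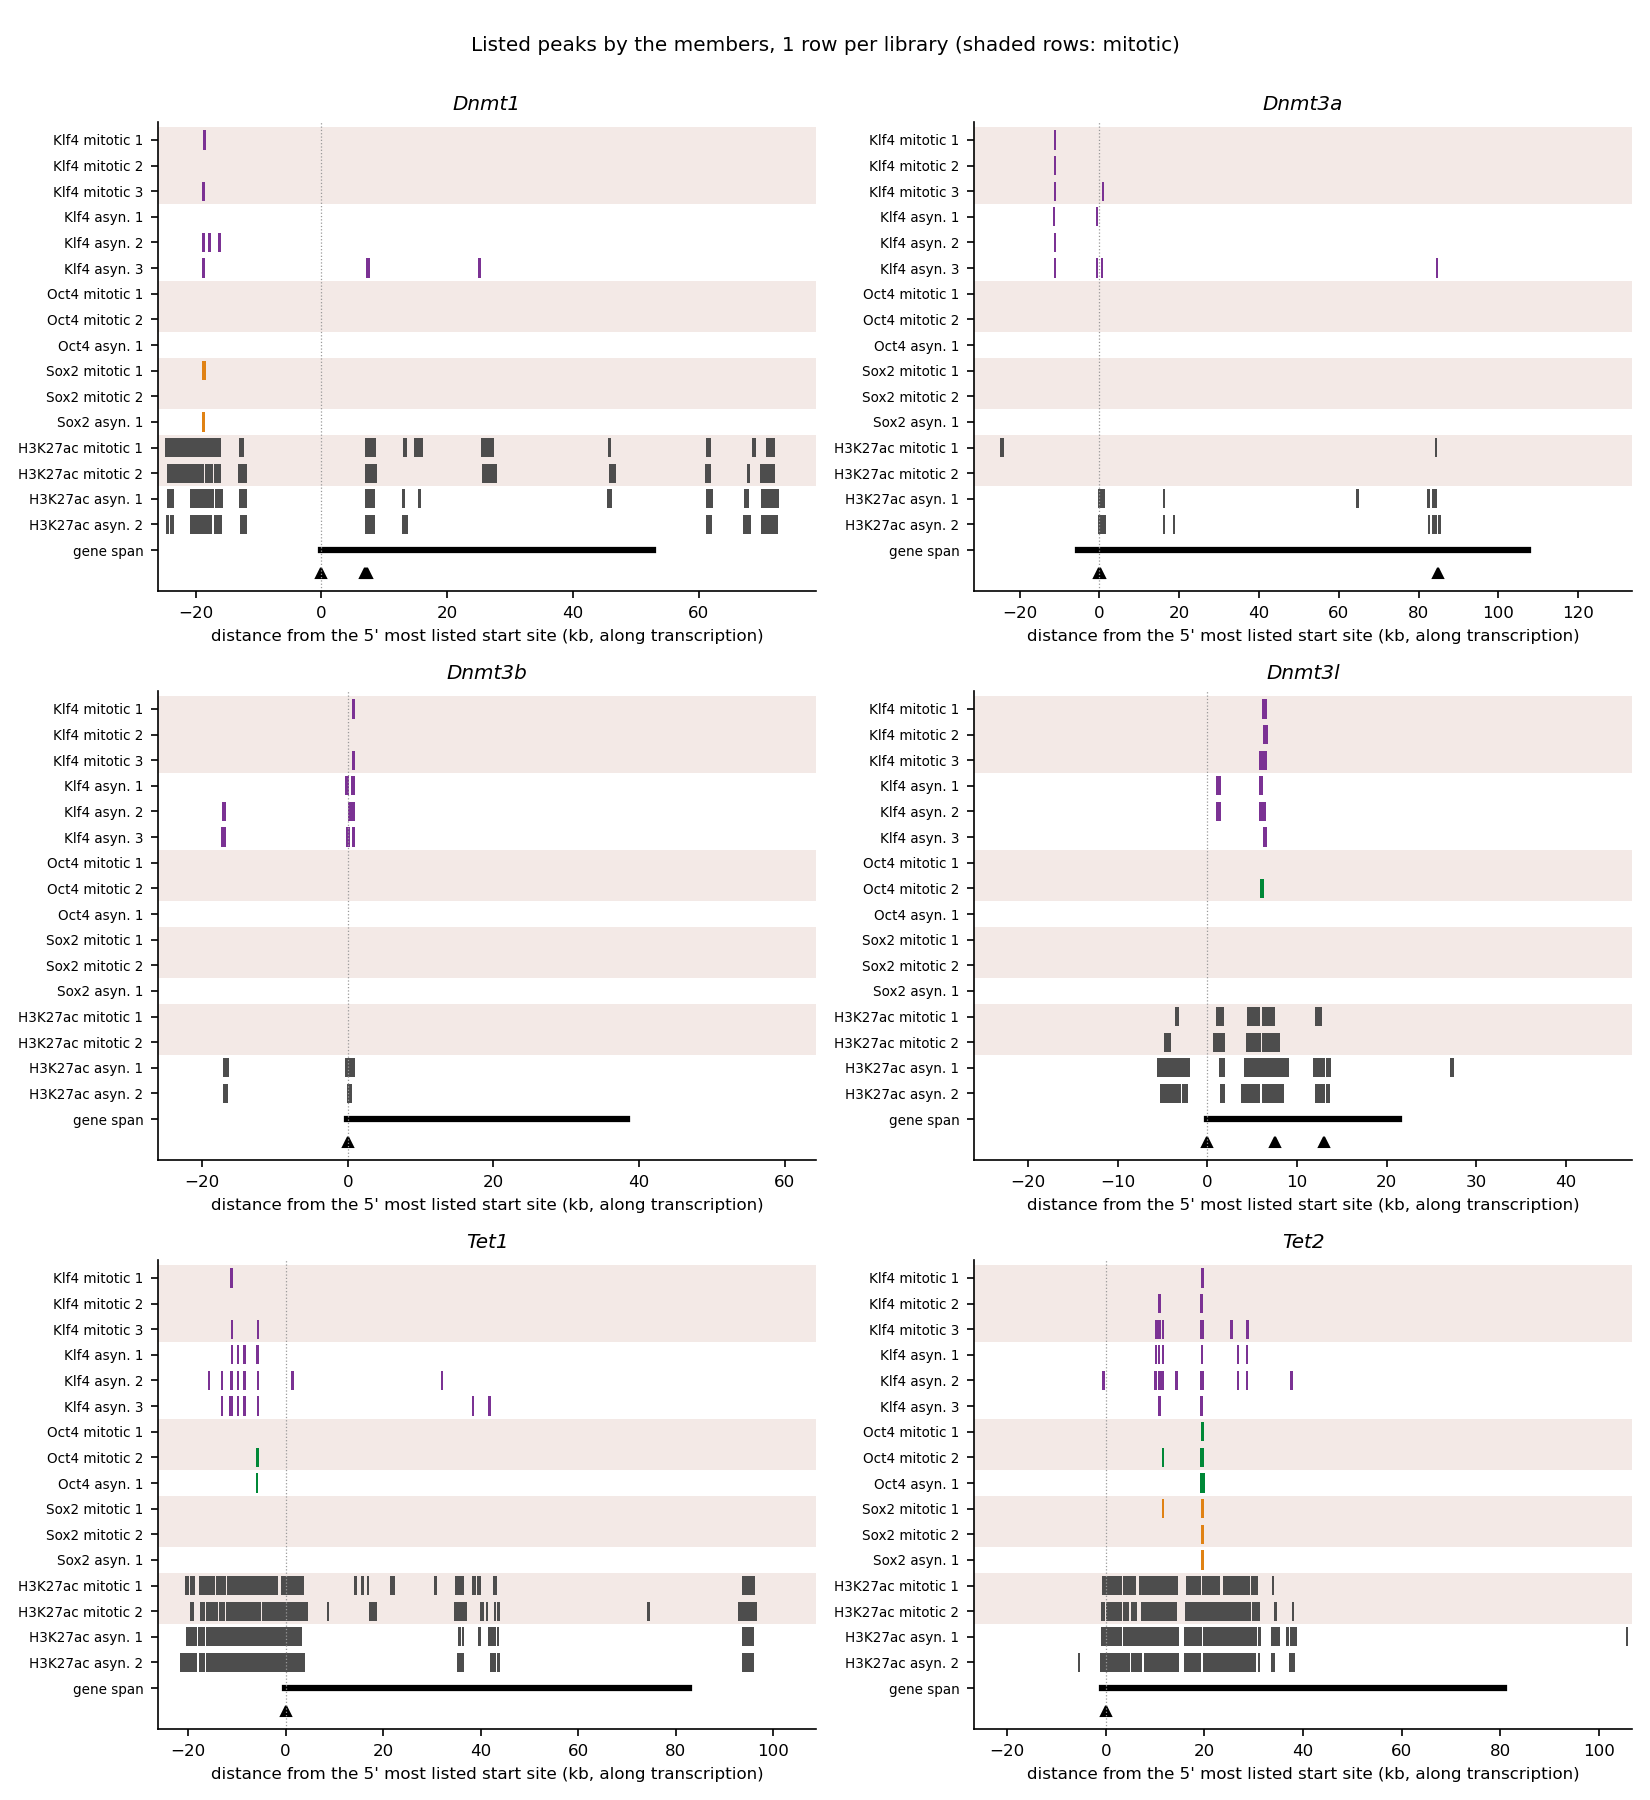
Peaks listed by each gene, 1 row per library with mitotic rows shaded and above the asynchronous rows of the same antibody. The x axis is the distance in kb from the 5′ most listed start site along transcription, black bars are gene spans, triangles are start sites, and bars narrower than 0.5 kb are drawn at that width. Dnmt3a and Dnmt3b have almost no mitotic H3K27ac peaks, and at Tet2 all 4 antibodies have mitotic peaks near 20 kb.

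Dnmt1, the maintenance methyltransferase, kept H3K27ac at 1 of its 2 internal start sites, and the other had a peak in H3K27ac mitotic 1 only. The region chr9:20951096-20952999, which covers a pair of listed starts, had deposited folds (the peak caller's ratio of signal to background) of 11.5 and 8.65 in mitotic cells and 15.998 and 18.05 in asynchronous cells. The mitotic folds lay below the asynchronous ones, with a log2 difference of −0.77 (exact two-sided permutation p = 0.333, the smallest that 2 against 2 allows; adjusted p = 0.385). Klf4 covered 1 of these 2 starts, in Klf4 asynchronous 3 only, at chr9:20952179-20952728 with a fold of 5.20. Inside the gene, 19.4 kb downstream of a start, chr9:20932010-20934428 was listed at folds of 9.01 and 10.7 in mitotic cells and not listed in asynchronous cells. This was the mitotic-only region of the 6 genes, and it stayed so with the stricter q and with lists of equal length.

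The kept Klf4 region counted for Dnmt1 lies upstream, at chr9:20978447-20978836, 18.8 kb from the nearest Dnmt1 start but 1.85 kb from the start of S1pr2, a sphingosine phosphate receptor gene. Its folds were 4.81 in Klf4 mitotic 1 and 4.87 in mitotic 3, with no peak in mitotic 2, and 4.52 and 6.81 in asynchronous 2 and 3, with no peak in asynchronous 1. Sox2 overlapped it at chr9:20978434-20978732, with 5.50 in Sox2 mitotic 1, no peak in mitotic 2 and 6.06 in the asynchronous library. Both sit in a broad H3K27ac region, chr9:20975498-20985519, whose folds of 17.4 and 14.1 in mitotic cells overlapped 17.3 and 12.8 in asynchronous cells. The H3K27ac region with the highest asynchronous fold in the window, chr9:20887162-20890088, lies 0.45 kb from the start of Ppan, a ribosome biogenesis gene, and had folds of 12.5 and 10.95 in mitotic cells and 25.4 and 25.997 in asynchronous cells. At chr9:20897579-20898862, 0.37 kb from the start of the translation factor gene Eif3g, they were 9.59 and 6.63 in mitotic cells and 19.3 and 13.0 in asynchronous cells. A weaker region, chr9:20971664-20973100, overlapped between states, with 4.65 and 6.47 in mitotic cells and 6.06 and 5.36 in asynchronous cells.

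Dnmt3a, a de novo methyltransferase, kept a strong Klf4 site in all 3 mitotic libraries while its start sites had almost no mitotic H3K27ac. The Klf4 site, chr12:3795484-3796150, lies 11.2 kb upstream of the first listed start and overlapped no H3K27ac, Oct4 or Sox2 peak. Its folds were 8.66, 6.07 and 5.61 in mitotic cells and 9.24, 8.72 and 12.5 in asynchronous cells. Every mitotic value lay below every asynchronous one, by 0.59 on the log2 scale (exact two-sided permutation p = 0.1, the smallest that 3 against 3 allows; adjusted p = 0.672). Its strength, the mean percentile of its fold within the asynchronous lists, was 95.5, the highest of the Klf4 regions by the 6 genes. A weaker Klf4 region 0.555 kb before that start, chr12:3806304-3806547, had 4.60 and 4.12 in asynchronous 1 and 3 and no mitotic peak.

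H3K27ac over the main Dnmt3a start, chr12:3806610-3808570, was not listed in mitotic cells and had folds of 9.02 and 8.88 in asynchronous cells. Klf4 at chr12:3807599-3808024, within it, had 4.07 in mitotic 3 and 3.68 in asynchronous 3. The intragenic start drives the shorter isoform that stem cells are known to use. Beside it chr12:3890282-3891683 had an H3K27ac fold of 3.13 in mitotic 1, none in mitotic 2, and 6.61 and 8.15 in asynchronous cells. A neighbouring region, chr12:3889054-3889840, was lost, as was chr12:3823026-3823437. H3K27ac covered 1.44 and 0 kb of the window in mitotic cells, against 5.19 and 4.83 kb in asynchronous cells.

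Dnmt3b, the other de novo methyltransferase, had no mitotic H3K27ac peak at all but kept 1 Klf4 site. The start site lies in the H3K27ac region chr2:153649013-153650512, which was not listed in mitotic cells and had folds of 7.64 and 6.90 in asynchronous cells. Klf4 at the start itself, chr2:153649239-153649648, which overlaps the stretch with adjacent GC boxes, was not listed in mitotic cells and had 4.24 and 3.72 in asynchronous 1 and 3. Those 2 folds were low within their lists, with a mean percentile of 8.30. The kept Klf4 region is 0.773 kb downstream of the start at chr2:153649985-153650459. There the folds were 4.81 and 3.49 in mitotic 1 and 3, with no peak in mitotic 2, and 6.23, 5.09 and 8.65 in asynchronous cells. No mitotic peak there reached a −log10 q of 5, so with that limit it counted as lost.

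The other sites of the asynchronous set counted for Dnmt3b lay at the start of Commd7, a neighbouring gene. Klf4 at chr2:153632107-153632721 had 3.60 and 10.3 in asynchronous 2 and 3, and H3K27ac at chr2:153632313-153633182 had 5.73 and 4.38 in asynchronous cells, and neither had a mitotic peak. A further Klf4 peak, chr2:153649651-153649825, 0.289 kb downstream of the Dnmt3b start, was in asynchronous 2 only. A window of 10 kb leaves out both sites at Commd7. The mean difference of H3K27ac regions at Dnmt3b was then −1.0, mitotic minus asynchronous. Having no mitotic region in it follows from there being none within 25 kb.

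Dnmt3l, the cofactor without catalytic activity, kept both Klf4 and H3K27ac near the middle of its 3 listed starts. The Klf4 region chr10:78048061-78048995, 1.31 kb upstream of that start, had folds of 5.29, 7.34 and 6.37 in mitotic cells and 5.90, 7.32 and 6.75 in asynchronous cells. The states overlapped, with a log2 difference of −0.08 (exact two-sided permutation p = 0.7). Oct4 overlapped this site in mitotic 2 only, at 5.28, and was not listed there in asynchronous cells. The H3K27ac region that spans the start, chr10:78046024-78051410, had strongest peaks of 6.69 and 9.51 in mitotic cells and 16.9 and 17.6 in asynchronous cells. Those mitotic peaks lay upstream of the start. Other mitotic peaks came close to the start but none covered it, whereas the strongest peak of each asynchronous library did. A further region, chr10:78036687-78040348, had 3.49 and 5.63 in mitotic cells and 16.3 and 14.5 in asynchronous cells, a log2 difference of −1.79, the largest decrease among the 17 H3K27ac regions listed in every library. The lost Klf4 region chr10:78043450-78043629 lies 0.071 kb from the start of Aire, a gene whose start is inside the Dnmt3l span. H3K27ac there, chr10:78042875-78044308, was kept, with 4.07 and 3.75 in mitotic cells overlapping 3.67 and 5.88 in asynchronous cells.

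Tet1, an oxidase well expressed in embryonic stem cells, combined few mitotic Klf4 regions with strong mitotic H3K27ac. Regions per library numbered 1, 0 and 2 in mitotic cells and 4, 8 and 7 in asynchronous cells for Klf4. Every mitotic count was below every asynchronous one (mean difference −5.33; exact two-sided permutation p = 0.1). Klf4 mitotic 3 and asynchronous 3, which share a title prefix, had 2 and 7. With lists of equal length the mean difference was −1.0 (exact two-sided permutation p = 0.7).

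The Klf4 regions of the Tet1 asynchronous set form a row of 5 between 5.63 and 13.0 kb upstream of the start, all inside 1 H3K27ac region of 20446 bp. The kept one, chr10:62898017-62898933, had 4.33 and 3.42 in mitotic 1 and 3, no peak in mitotic 2, and 5.11, 4.47 and 7.47 in asynchronous cells. The one nearest the start, chr10:62892679-62893223, had 6.18 in mitotic 3 only, and 4.70, 3.51 and 5.43 in asynchronous cells. Oct4 overlapped it at chr10:62892901-62893243, with 6.45 in Oct4 mitotic 2, no peak in mitotic 1 and 4.24 in the asynchronous library. The remaining 3, chr10:62895538-62895995, chr10:62896862-62897308 and chr10:62900222-62900472, had no mitotic peak.

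That long H3K27ac region, chr10:62883294-62903739, covers the Tet1 start and had folds of 22.7 and 20.5 in mitotic cells and 34.9 and 33.0 in asynchronous cells. Its mean percentile within the lists was 98.5 in mitotic and 99.0 in asynchronous cells. The mitotic folds of 22.7 and 20.5 came from peaks upstream of the start, and mitotic peaks over the start had 8.72 and 10.6. In each asynchronous library a long peak spanned both positions. Inside the gene, 35.9 kb downstream of the start, chr10:62850090-62852694 had 11.2 and 11.5 in mitotic cells and 5.52 and 5.12 in asynchronous cells. This log2 difference of 1.10 was the largest increase among the 17 member regions, and every mitotic value lay above every asynchronous one (exact two-sided permutation p = 0.333; adjusted p = 0.385). The other region above in mitosis, chr10:62790581-62794548, lies 0.196 kb from the start of Ccar1, a cell cycle and apoptosis regulator, with 28.8 and 30.6 in mitotic cells and 24.8 and 20.5 in asynchronous cells. The remaining 3 regions listed in every library lay below in mitosis. These were chr10:62903772-62905347, chr10:62905479-62908943 and chr10:62844048-62845719, with log2 differences of −1.02, −1.29 and −0.17.

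Tet1 had more H3K27ac regions in mitotic than in asynchronous lists, 14 and 13 against 8 and 7 (mean difference 6.0; exact two-sided permutation p = 0.333). Of 16 regions inside its span, 12 were listed in 1 mitotic library only, at folds of 3.49 to 5.19 and widths of 275 to 1500 bp. With peaks of a −log10 q of at least 5 the mean difference was 0. The length covered differed less than the counts, at 30.7 and 33.3 kb in mitotic cells and 29.6 and 30.6 kb in asynchronous cells.

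Tet2, the second oxidase, held the one site of the 6 genes that was kept for all 3 factors. It lies inside the gene 19.5 kb downstream of the start. Oct4 at chr3:133524331-133525254 had 5.46 and 29.9 in mitotic cells and 36.1 in asynchronous cells, where it ranked at percentile 99.7 of its list. Oct4 mitotic 2 was close to the asynchronous library, and mitotic 1 was far below both. Sox2 at chr3:133524439-133525142 had 15.1 and 6.26 in mitotic cells and 8.11 in asynchronous cells, so the mitotic values lay on both sides of the asynchronous one. Klf4 at chr3:133524415-133525286 had 4.72, 4.57 and 8.63 in mitotic cells and 3.84, 5.19 and 12.7 in asynchronous cells. These overlapped, with a log2 difference of −0.15 (exact two-sided permutation p = 0.8). All 3 factor regions were also kept with lists of equal length, and with the stricter q each was listed in 1 mitotic library.

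A second shared position lies between 11.5 and 11.6 kb downstream of the Tet2 start. Oct4 at chr3:133532717-133532940 had 5.66 in mitotic 2 only, and Sox2 at chr3:133532716-133532950 had 5.66 in mitotic 1 only, with no asynchronous peak for either. Klf4 at chr3:133532579-133533118 had 4.99 in mitotic 3 and was listed in 2 asynchronous libraries at a mean fold of 6.32. Next to it, the kept Klf4 region chr3:133533176-133534463 had no peak in mitotic 1, 4.57 and 8.80 in mitotic 2 and 3, and 15.4, 7.44 and 5.41 in asynchronous cells.

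H3K27ac at Tet2 lay in a pair of broad regions that both mitotic lists held at lower folds. The one with the shared factor site, chr3:133512889-133528493, had folds of 8.21 and 9.84 in mitotic cells and 25.1 and 17.5 in asynchronous cells. The other, chr3:133529501-133545628, covers the start, and its strongest peaks had 11.2 and 12.1 in mitotic cells and 34.1 and 25.6 in asynchronous cells. These strongest peaks lay inside the gene, downstream of the start. Peaks over the start had 7.85 and 10.7 in mitotic cells and 14.6 and 13.1 in asynchronous cells. For the pair of regions, the log2 differences of the strongest peaks were −1.22 and −1.34 (exact two-sided permutation p = 0.333 and adjusted p = 0.385 for both). A weak region, chr3:133509556-133510882, was also below in mitosis, with a log2 difference of −0.29. Klf4 regions per library at Tet2 numbered 1, 2 and 5 in mitotic cells and 5, 8 and 2 in asynchronous cells, and in the libraries that share a title prefix they were 5 in mitotic 3 and 2 in asynchronous 3.

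**Figure D2:**
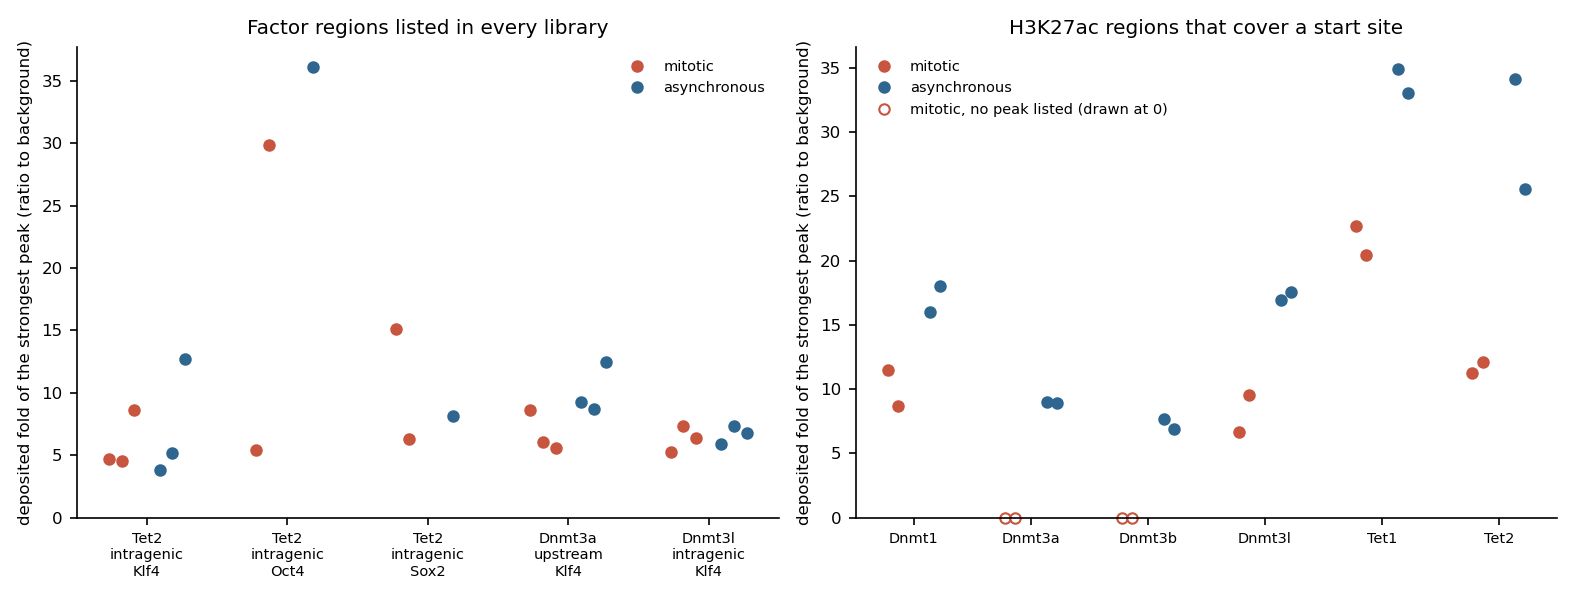
Deposited fold of the strongest peak in each library (linear axis from 0), for 5 factor regions listed in every library of their antibody and for the H3K27ac region over a start site of each gene. The strongest peak of such an H3K27ac region need not cover the start. It did not at Tet2, nor in mitotic cells at Dnmt3l and Tet1. Each point is a library, mitotic left of asynchronous, and open points at 0 are libraries with no listed peak. The mitotic H3K27ac points lie below the asynchronous ones at all 6 genes, and at Dnmt3a and Dnmt3b no mitotic peak was listed.

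Set side by side, the genes differed in which lists shortened. For Klf4, every mitotic count lay below every asynchronous one at 2 of 6 genes, Dnmt3b (1, 0 and 1 in mitotic, 2, 3 and 3 in asynchronous cells) and Tet1, against 16.2% of all genes with a Klf4 region. For H3K27ac this held at 4 of 6, against 39.7% of all genes. These were Dnmt3a (2 and 0 in mitotic, 5 and 6 in asynchronous cells), Dnmt3b (0 and 0 in mitotic, 2 and 2 in asynchronous cells), Dnmt3l (4 and 3 in mitotic, 6 and 5 in asynchronous cells) and Tet2 (3 and 4 in mitotic, 7 and 5 in asynchronous cells). With lists of equal length the mean difference for Klf4 was −1.0 at both Dnmt3b (exact two-sided permutation p = 0.3) and Tet1 (exact p = 0.7). For H3K27ac it was −1.5 at Dnmt3l (exact p = 0.667) and −0.5 at Tet2 (exact p = 1.0). None of these still separated, while H3K27ac at Dnmt3a (−2.5) and Dnmt3b (−2.0) did. Among all H3K27ac counts as listed, the opposite direction held at Tet1, 1 of 6, against 10.3% of all genes. At Dnmt1 the counts met, with 11 and 9 in mitotic and 9 and 7 in asynchronous cells.

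**Figure D3:**
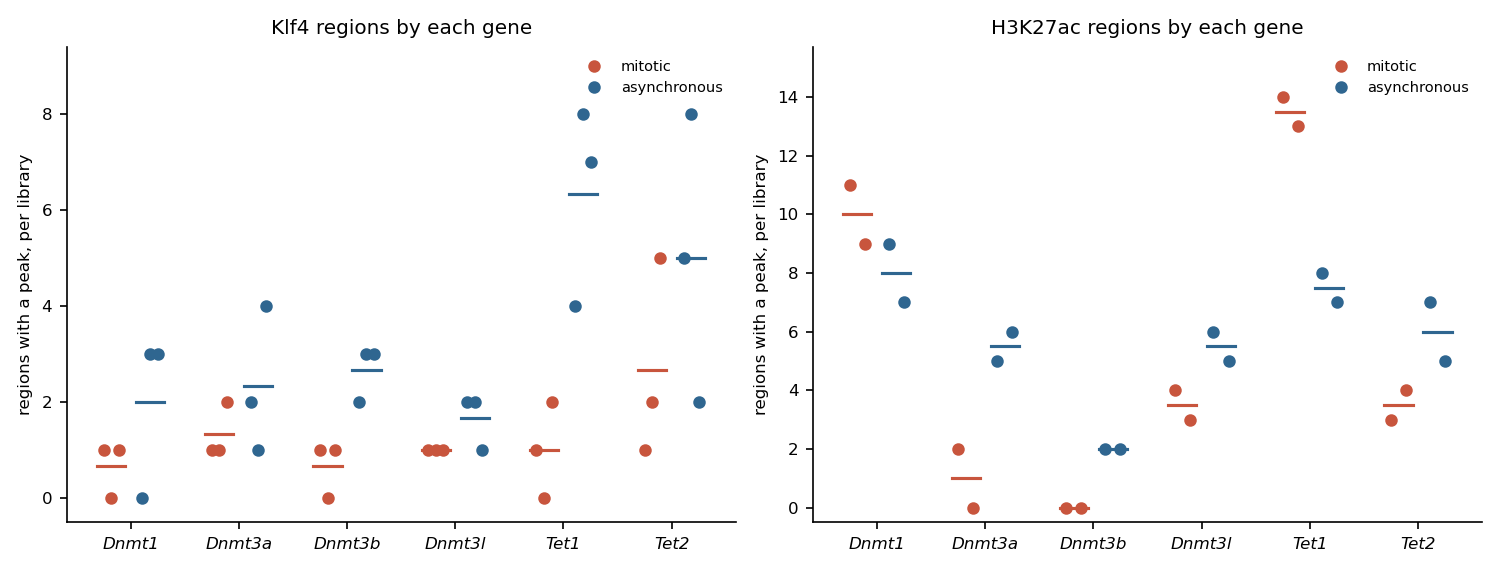
Number of Klf4 and H3K27ac regions with a peak by each gene. Each point is a library, mitotic left of asynchronous, and lines are means. Tet1 has 0 to 2 mitotic against 4 to 8 asynchronous Klf4 regions, and 13 and 14 mitotic against 7 and 8 asynchronous H3K27ac regions.

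Folds could be compared where every library of an antibody listed a region. Of 3 such Klf4 regions 1, at Dnmt3a, had all mitotic folds below all asynchronous ones, against 14.4% over 1243 regions, and the median log2 difference of all of them was −0.33. Of 17 H3K27ac regions 12 lay below and 2 above, both of the 2 at Tet1, against 78.0% below and 8.57% above over 14962 regions with a median of −0.81. Folds come from lists that were called separately, and depth could not be set equal.

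**Figure D4:**
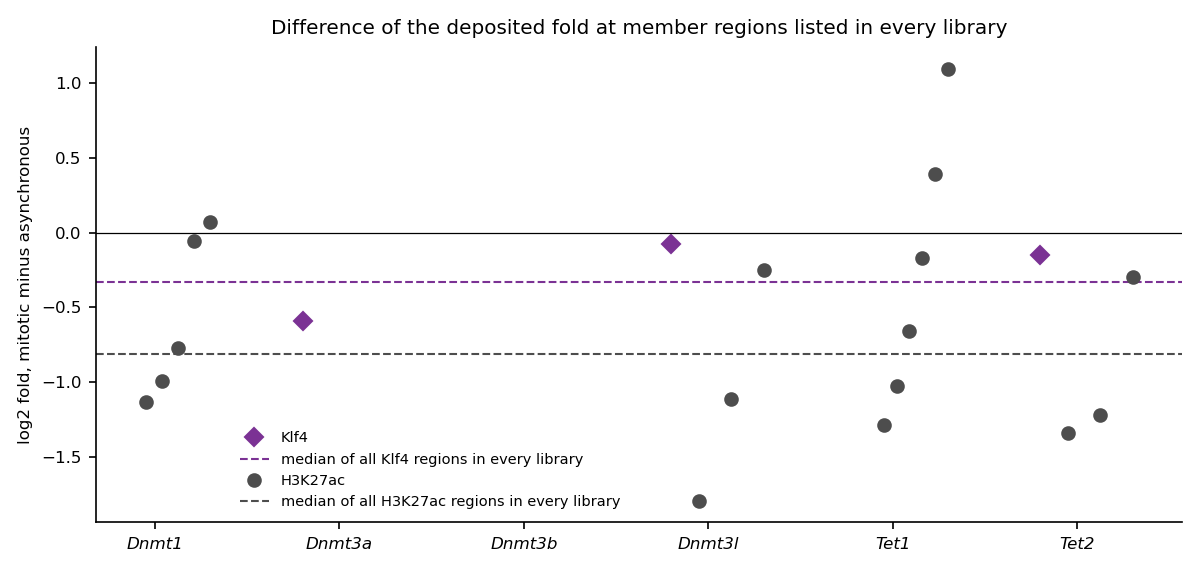
Mean log2 of the deposited fold in mitotic minus that in asynchronous libraries, for each region by a gene that every library of its antibody listed (diamonds Klf4, circles H3K27ac), with dashed lines at the median over all such regions. Dnmt3a and Dnmt3b have no such H3K27ac region, and the 2 highest points are at Tet1.

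Whether a region was kept went with its strength in asynchronous cells, over the genome as over these genes. Of all H3K27ac regions 12.3% were kept in quintile 1, the weakest, and 94.2% in quintile 5, the strongest, and for Klf4 the shares were 7.65% and 59.2%. By the 6 genes 10 of 10 H3K27ac regions of quintile 5 were kept, and 2 of 8 in quintile 1. None of the Dnmt3a or Dnmt3b H3K27ac regions was in quintile 5. The Dnmt3b start-site region, at percentile 61.8, fell in quintile 3, where 40.5% of all regions were lost, and the Dnmt3a start-site region, at 72.2, in quintile 4, where 17.1% were lost. For Klf4, 4 of 5 member regions of quintile 5 and 3 of 6 of quintile 4 were kept, and none of the 7 below. Kept regions were also wider, with medians of 872 bp for Klf4 and 2927 bp for H3K27ac, against 330.5 and 787 bp for lost ones. Over all regions the medians were 586 and 1952.5 bp for kept ones, against 336 and 841 bp for lost ones. A region spans all its merged peaks, so being listed in more libraries can by itself make it wider. The part of strength in the differences between genes was not tested.

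**Figure D5:**
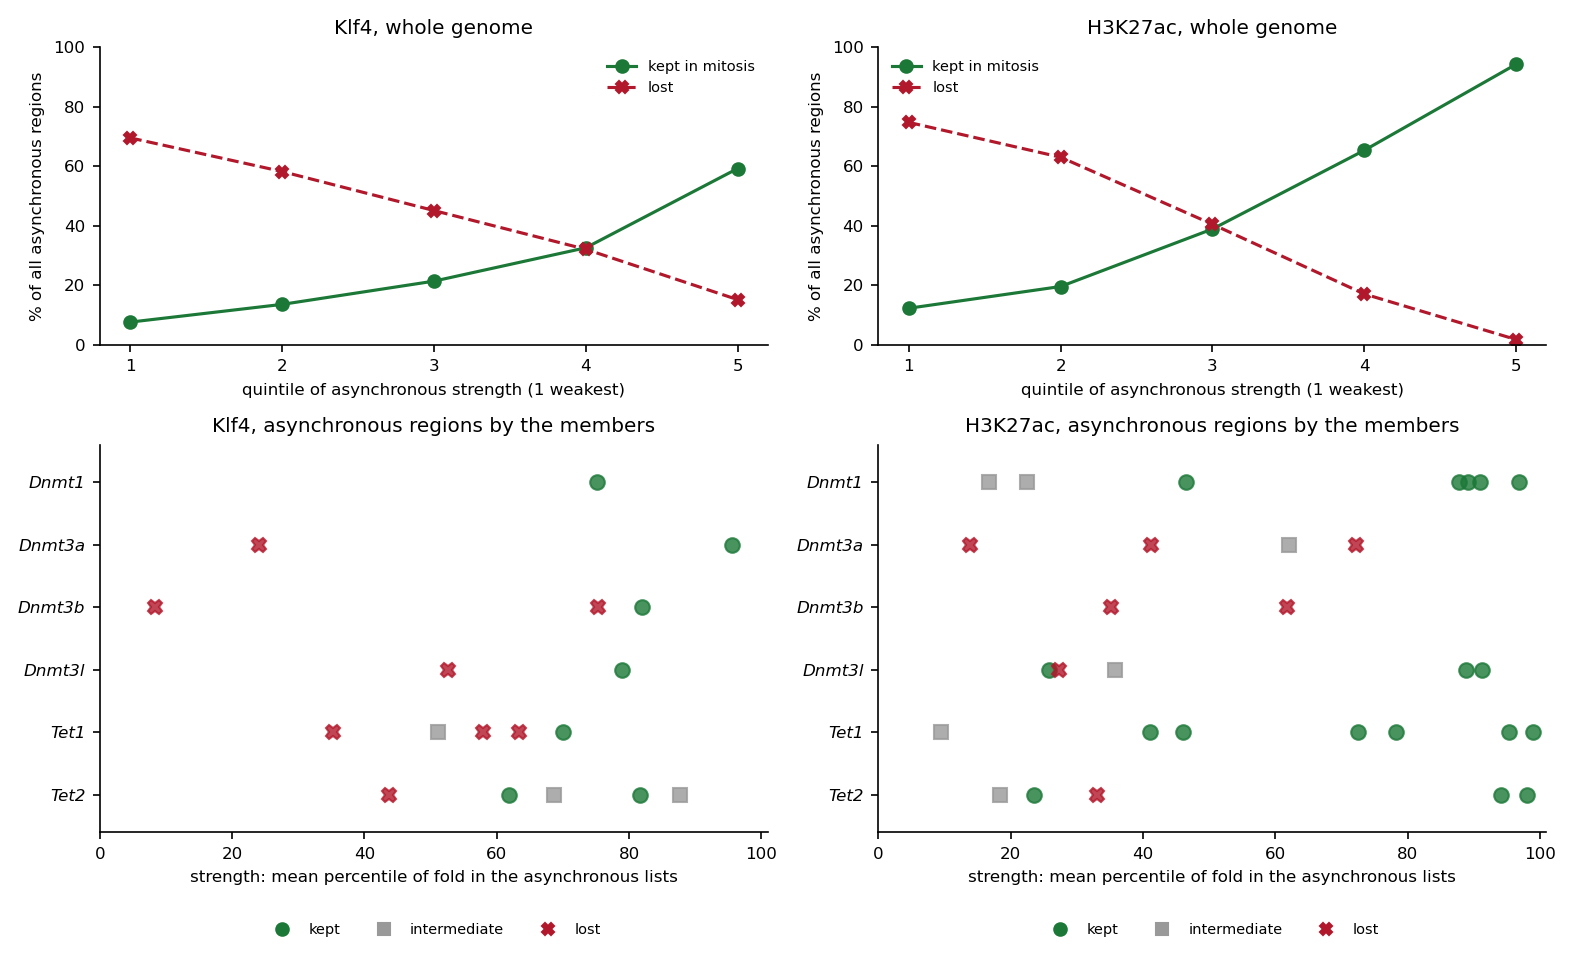
Upper panels, percent of all asynchronous regions that were kept or lost in mitosis by quintile of asynchronous strength, from 12.3% to 94.2% kept for H3K27ac. Lower panels, each asynchronous region by the 6 genes at its strength (mean percentile of fold within the asynchronous lists), by status, where the H3K27ac regions of Dnmt3a and Dnmt3b lie between 13.8 and 72.2.

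Factor sites of the 6 genes sat mostly in acetylated chromatin, as most factor sites did over all regions. In the asynchronous set 16 of 18 Klf4 regions overlapped an asynchronous H3K27ac region, or 88.9%, against 75.4% of all Klf4 regions, and both exceptions were at Dnmt3a. Both Oct4 regions overlapped Klf4 and H3K27ac, against 51.0% and 59.0% of all Oct4 regions. Both Sox2 regions did too, against 53.1% and 63.3% of all Sox2 regions. Conversely 13 of 30 H3K27ac regions overlapped Klf4, or 43.3%, against 45.8% of all.

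Other genes of the pathway were counted the same way. A kept Klf4 region lay by 5 of 6 maintenance partners with an asynchronous Klf4 region, 3 of 7 demethylation genes, 2 of 2 methyl-binding readers, 5 of 9 genes for targeting and protection and 0 of 1 for methyl donor supply, where the share over all genes was 44.9%. For H3K27ac the counts were 7 of 7, 8 of 9, 4 of 6, 9 of 9 and 2 of 2 in the same order, against 81.6% of all genes. For Oct4 they were 1 of 3, 2 of 4, 0 of 0, 3 of 6 and 1 of 1, against 24.7%, and for Sox2 1 of 2, 1 of 3, 0 of 1, 4 of 5 and 1 of 1, against 41.2%. The lists are short, and nothing is read from them beyond these counts. Ordered by asynchronous fold, the first kept factor sites were those of Oct4 by Ehmt1, a histone H3 lysine 9 methyltransferase, with a mean fold of 12.4 in mitotic and 18.4 in asynchronous cells, and by Ahcy, which clears the methylation by-product S-adenosylhomocysteine, with 7.65 in mitotic and 16.6 in asynchronous cells. Dppa3, which guards methylation in the zygote, shared with Apobec1, a cytidine deaminase gene, a Sox2 site at 7.56 in mitotic and 13.1 in asynchronous cells. Trim28, the corepressor that protects imprints, had Sox2 at 10.4 in mitotic and 11.9 in asynchronous cells. Klf4 at Tet3, the third Tet oxidase, averaged 4.71 in mitotic and 10.8 in asynchronous cells, and at Mbd2, a reader, 9.08 in mitotic and 11.7 in asynchronous cells. Klf4 averaged 7.21 in mitotic and 8.34 in asynchronous cells by Prdm14, a repressor of Dnmt3b in stem cells, and 4.35 in mitotic and 7.72 in asynchronous cells by Pcna, the replication clamp. Oct4 by Uhrf2, a relative of the Dnmt1 partner Uhrf1, averaged 7.03 in mitotic and 8.14 in asynchronous cells.

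By the percentile of their strongest peak in each of the 16 libraries, the genes most like Dnmt1 were Col16a1 and Pef1 (Pearson correlation 0.967 for both), and those most like Dnmt3a were Tmem210 and Lrrc26 (0.981 for both). For Dnmt3b they were Tppp3 (0.976) and B3gnt6 (0.972), for Dnmt3l Znrd1as (0.985) and Znrd1 (0.9845), for Tet1 4931406C07Rik (0.9845) and Dhdds (0.983), and for Tet2 Nup205 (0.944) and 1810058I24Rik (0.940). The 16 points share antibodies and list lengths, so these likenesses are descriptions. At the edge of the window the Tet2 peak of H3K27ac asynchronous 1 lay inside, 24.976 kb from the gene, with a fold of 6.36, and that of asynchronous 2 outside, at 25.012 kb, with 4.07.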

How the data were processed

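Peak lists of 16 libraries were used. The list of the mix with neural progenitors was left out, and the 7 inputs have no list here. Per the submitters' processing notes, tools were cutadapt 1.8.1, Bowtie2 2.2.5, deepTools 2.3.6 and MACS2 2.1.1, with build mm10. In the deposited lists the authors gave each peak a fold (ratio of signal to background), a −log10 p, a −log10 q and a score, which was not used. Each list is of 1 library, none holds a peak with a −log10 p under 5, and read depth is unknown, so no interval for it is given.

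Peaks of an antibody were merged genome-wide at 1 bp of overlap. Distances run from region midpoints to RefSeq start sites (GRCm38.p6), and exon and intron maps were not used here. A region's fold is that of its strongest peak per library. Single genes and regions were tested by exact two-sided permutation over libraries, whose smallest p is 0.1 for 3 against 3 and 0.333 for 2 against 2, with Benjamini-Hochberg adjustment of folds over all regions in every library. Nothing says the libraries came from separate cultures, so p-values measure spread between libraries only. Calculations used Python 3.11.15, numpy 2.4.6, pandas 2.3.3, scipy 1.17.1 and statsmodels 0.14.6, with figures by matplotlib 3.10.9. Merging, classes and permutation were tested on simulated data. Alternatives were a −log10 q of at least 5, trimmed peaks, windows of 10 and 50 kb, lists of equal length, 1 mitotic library as enough, single libraries left out, the title prefix EC-EA-3702 alone and pairing by replicate number.

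Regions named are, per gene and antibody, the strongest in asynchronous cells, those in every library and up to 3 shared by antibodies, besides others chosen after their values were seen. Pathway genes named are the 10 whose kept factor site has the highest asynchronous fold. Members and lists were chosen with earlier results of these data known.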

Additional observations from a re-analysis of the deposited data

Results flagged for a closer look

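At Tet1 the counts of Klf4 and H3K27ac regions differed between states in opposite directions. Klf4 regions per library were 1, 0 and 2 in mitotic and 4, 8 and 7 in asynchronous cells, a mean difference of −5.333, and H3K27ac regions were 14 and 13 in mitotic and 8 and 7 in asynchronous cells, a mean difference of 6.0. Every mitotic Klf4 count lay below and every mitotic H3K27ac count above all asynchronous ones, and the difference between the antibodies was not tested. With a −log10 q of at least 5 the differences were −2.667 and 0, and with lists of equal length −1.0 and 4.5.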

How the results depend on the processing

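Of 79 values recomputed for the 4 antibodies as wholes, 61 did not change sign and moved by at most the larger SD between libraries (log2 differences) or 1.5 times (kept counts). That tolerance is wide: it takes in a move of Sox2 from 0.0 to −1.0 with lists of equal length. Of 126 values for single genes 119 kept their direction, 3 came to 0 and 4 turned. The 3 at 0 were H3K27ac at Tet1 with the stricter q, Klf4 at Dnmt3a with lists of equal length and Klf4 at Dnmt3l under the title prefix EC-EA-3702. Klf4 regions per library differed by −1.447 (log2, mitotic over asynchronous), by −2.28 with a −log10 q of at least 5 by −0.4406 with lists of equal length and by −0.8074 between the libraries of title prefix EC-EA-3702. For H3K27ac the difference was −0.152, with −0.5564 at the stricter q, −0.4283 within 50 kb and 0.1155, the other direction, with lists of equal length. For Oct4 it was 0.3219, and −0.415 within 50 kb. The kept counts were 2 (Klf4), 0 (Oct4) and 0 (Sox2) at the stricter q, 4 for Klf4 with lists of equal length, 11 for H3K27ac within 10 kb, and 2 each for Oct4 and Sox2 when 1 mitotic library sufficed. Leaving out single libraries gave log2 differences of −2.047 to −1.152 (Klf4), −1.0 to 1.0 (Oct4), −1.0 to 0.585 (Sox2) and −0.2713 to −0.04064 (H3K27ac). Kept counts were 3 to 7, 1 to 2, 1 to 2 and 18 to 21 in the same order. The rule for kept changed with the libraries left. For Klf4 both remaining libraries of the shortened state had to list a region, so the count could hardly rise. For the other antibodies the 1 remaining library of that state sufficed, so the count could hardly fall. The cause was not tested.

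Single genes turned direction with lists of equal length for Klf4 at Dnmt1 (0.3333 regions, mitotic minus asynchronous) and Dnmt3l (0.3333), for Klf4 at Tet2 under the title prefix EC-EA-3702 (3.0) and for H3K27ac at Dnmt1 within 50 kb (−2.0). With the replicate block, which pairs the H3K27ac libraries by number, the log2 difference was −0.1542. The numbers share no title prefix, and 2 pairs cannot show pairing. No paired analysis was possible for the other antibodies because their numbers are in accession order or a state has 1 library.

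No permutation test over 2 or 3 libraries per state reaches 0.05. Read depth is unknown, and a peak that is not listed was not detectable at that library's depth and threshold.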
